A study of Mus musculus with 6 samples.

Results

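Axon guidance genes encode the secreted and membrane-bound cues that steer growing axons and migrating neurons, and the receptors that read those cues. A list of 40 such genes was examined in mouse brain tissue of 3 Gb5-deficient (KO) and 3 wild-type (WT) mice, tissue that the series title gives as cerebellum. The genes fall into the semaphorin-plexin family (17 genes), the slit-robo family (6 genes), the netrin family (7 genes) and the ephrin family (10 genes). A gene was represented by the probe set with the highest mean over the 6 arrays among those annotated to it alone, which gave 39 of the 40 genes out of 18193 genes in all. Ephb2 had no such probe set in the annotation used and was not analysed here. All 39 lay above the filter on dim signal (a mean of 4.70, log2), so none was lost to it.

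Gnb5 encodes Gb5, a neuronal beta subunit of G proteins that pairs with RGS proteins of the R7 family. The KO group was labelled Gb5-deficient and the WT group wild type. Per the labels both came from cohorts of littermates matched by age and sex, but the age, the strain and the design of the deleted allele are not given in the sources used here. RNA of each mouse was hybridised to a separate Affymetrix array, numbered 4, 5 and 6 for KO and 1, 2 and 3 for WT. Values are log2 signals as the authors deposited them, so a difference of 1 is a 2-fold difference in signal. In tissue RNA, fewer cells of a type and less RNA per cell cannot be told apart.

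In the developing nervous system, semaphorins act mostly through plexins, with neuropilins as co-receptors for the secreted members. Slits repel axons through Robo receptors, netrin-1 attracts through Dcc and repels through Unc5 receptors, and ephrins signal at cell contacts through Eph receptor tyrosine kinases. In the cerebellum, such cues are known for the inward migration of granule cells, the path of precursors at the rostral border and the targeting of incoming fibres. Many of the genes stay expressed in adult neurons and glia.

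The arrays were checked before the guidance genes were compared. The Gnb5 probe set read 3.65, 3.36 and 2.96 in KO arrays 4, 5 and 6, against 8.80, 8.51 and 8.70 in WT arrays 1, 2 and 3. Cerebellar markers were bright on every array: the granule cell markers averaged 12.03 to 12.42 in KO and 12.18 to 12.39 in WT, and the Purkinje cell markers 12.11 to 12.46 in KO and 12.20 to 12.43 in WT. KO array 6 stood apart, with a Y-linked Eif2s3y signal of 11.80 against 3.19 to 3.43 on the other 5 arrays. Its Xist signal was 8.22 against 11.17 to 11.64. Both go against the labelled matching by sex. Its Gapdh probe sets also differed more between the 3′ and the 5′ end (1.58, against 1.03 to 1.14 on the others), so the counts by family and role are also given without that array. Array medians ran from 6.48 to 6.57, and Pearson's r between arrays over all probe sets lay between 0.991 and 0.997. With 3 arrays a genotype, their number sets the precision.

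No guidance gene of the 39 passed in either direction. Across all genes, 0.0355% passed (5 of 14067, among them Gnb5) in limma's moderated test with Benjamini-Hochberg adjustment at 0.05, 0.00711% higher in KO and 0.0284% lower. The smallest limma adjusted p among the 39 was 0.573, reached by Efna3 and Sema3d. At an unadjusted limma p under 0.05 there were 2 guidance genes, 5.13% of the 39, against 8.57% of all genes. With arrays weighted by their quality there were 7 (17.9%, against 11.7% of all genes). Without KO array 6 there were 0, against 4.18% of all genes. The KO arrays lay wholly above the WT arrays for 1 guidance gene and wholly below them for 2, together 7.69% of the 39, against 14.9% of all genes (10.1% with KO above and 4.82% with KO below). A log2 difference over 0.25 in size was seen in 6, 15.4% of the 39, against 14.6% of all genes.

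The log2 fold changes of the 39 genes ran from -0.30 for Efnb2 to 0.42 for Efna3, with 21 above 0 and 18 below. Their median was 0.01, beside 0.03 over all genes tested, of which 56.7% lay above 0. The 95% interval of the fold change stayed within 2-fold in either direction for 39 of 39 genes (100%, against 98.4% of all genes). It stayed within 1.5-fold for 32 of them (82.1%, against 84.9% of all genes). For most of the list, differences of 1.5-fold or more thus lay outside the interval.

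**Figure D1:**
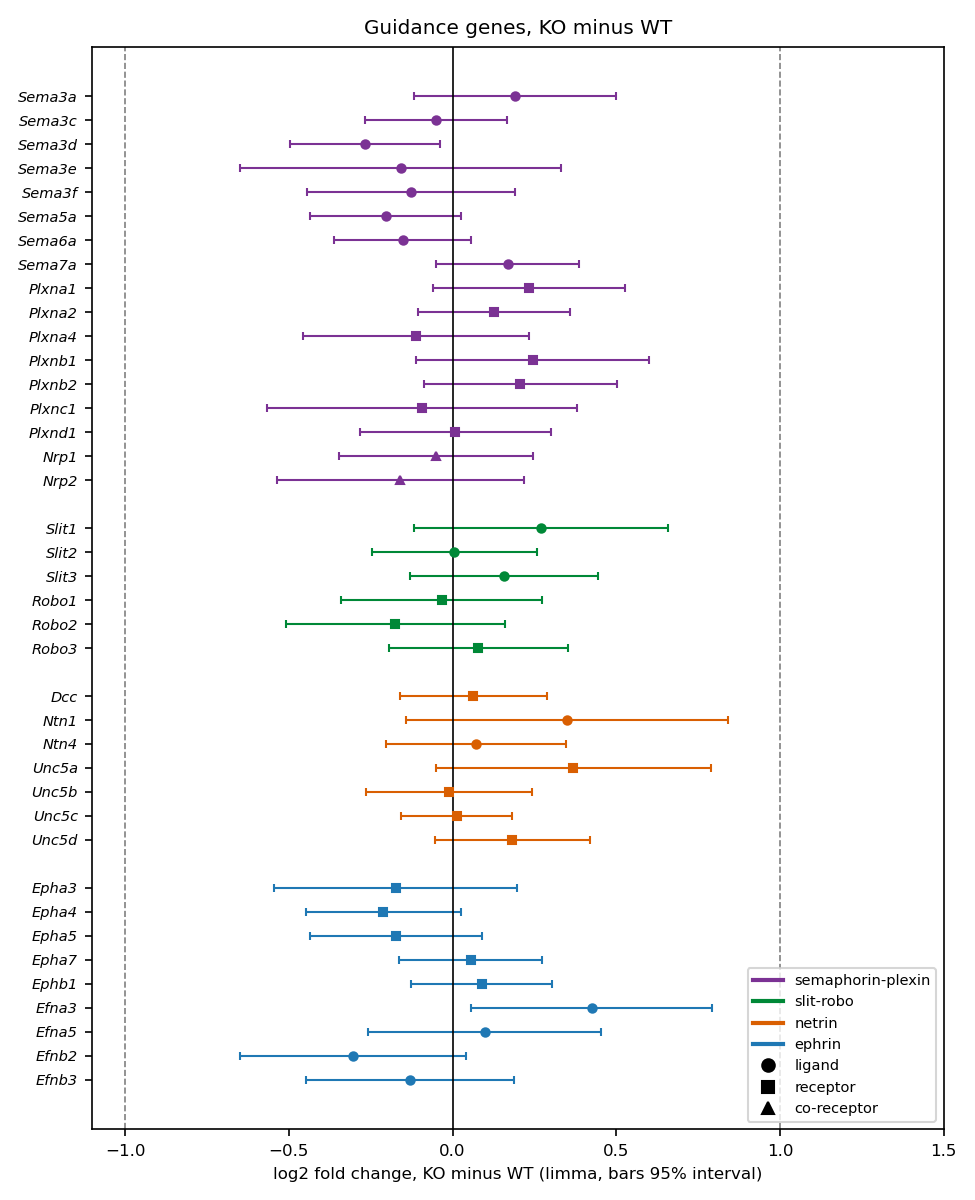
Log2 fold change, KO minus WT, of the 39 guidance genes (x axis) by family (colour) and role (marker), with 95% intervals from limma. All intervals lie between the dashed lines at a 2-fold difference, and 37 of the 39 include 0.

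The medians of the 4 families lay close together. The median log2 fold change was -0.05 for the semaphorin-plexin family (7 genes above 0 and 10 below), 0.04 for the slit-robo family (4 and 2), 0.07 for the netrin family (6 and 1) and -0.13 for the ephrin family (4 and 5). Without KO array 6 these medians were 0.02 (9 above and 8 below), 0.04 (4 and 2), 0.05 (6 and 1) and -0.11 (4 and 5), and 23 of the 39 genes lay above 0. The slit-robo median was -0.0019 without KO array 5 and -0.0012 without WT array 1, with 3 genes on each side of 0 in both. With the mean of a gene's probe sets in place of the brightest they were 0.04, 0.16, 0.15 and 0.03, and 27 of 38 genes lay above 0. Ligands as a whole (17 genes) centred on 0.00 and receptors (20 genes) on 0.03. Without KO array 6 the medians were 0.01 for ligands and 0.04 for receptors, and without WT array 1 the receptors' was -0.0044. The families were described by their counts and medians and were not tested against each other.

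Among the semaphorins, the ligands of the first family, 6 of 8 had values below 0 (5 of 8 without KO array 6) and none passed. With the mean of each gene's probe sets in place of the brightest one, 4 of the 8 lay above 0. Sema3d, a secreted semaphorin, read 9.03, 8.88 and 8.85 in KO arrays 4, 5 and 6, against 9.20, 9.10 and 9.26 in WT arrays 1, 2 and 3. All 3 KO arrays were below all 3 WT arrays, by a small margin beside the signal itself. Its log2 fold change was -0.27 (SE 0.10, 95% interval -0.50 to -0.04), and its limma adjusted p was 0.573. The other Sema3d probe set had a value of 0.04, with overlapping groups. With the mean of both probe sets in place of the brightest, Sema3d gave -0.11.

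Sema5a, a membrane semaphorin with thrombospondin repeats, read 9.76, 9.72 and 9.58 in KO arrays and 9.76, 9.99 and 9.91 in WT arrays. The groups did not overlap, though KO array 4 and WT array 1 nearly touched. On the log2 scale the difference was -0.20 (SE 0.10, limma adjusted p = 0.604). Both of its other probe sets above the filter also lay below 0, at -0.28 and -0.32, and the groups overlapped on each. Without KO array 6 or without WT array 2 the Sema5a value was -0.15.

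Sema7a, a semaphorin held to the membrane by a lipid anchor and bound by Plxnc1, was the guidance gene whose KO arrays lay wholly above the WT arrays. It read 8.76, 8.76 and 8.75 in KO, against 8.49, 8.64 and 8.63 in WT. The KO arrays were nearly identical (SD 0.0067, n = 3) and the difference of 0.17 (SE 0.10) did not pass (limma adjusted p = 0.613). Its other probe set lay at -0.09, with overlapping groups, and the mean of both gave 0.04.

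The other semaphorins overlapped between the genotypes. Sema3a, the repellent that acts through Nrp1, averaged 10.02 ± 0.26 in KO and 9.83 ± 0.10 in WT (SD, n = 3 each), with log2 fold changes of 0.19, 0.17 and 0.11 on its 3 probe sets. On the brightest the value was 0.061 without KO array 4 and 0.32 without KO array 5. Sema6a, the membrane ligand of Plxna2 and Plxna4 known for granule cell migration in mice, averaged 10.25 ± 0.05 in KO and 10.40 ± 0.12 in WT (SD, n = 3 each), a value of -0.15. Its other probe sets gave 0.14 and -0.17, and the mean of all 3 gave -0.061. Sema3e, a ligand of Plxnd1, gave -0.16, -0.17 and -0.15 on its 3 probe sets above the filter. Sema3f, which acts through Nrp2, had a value of -0.13, and Sema3c one of -0.05.

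**Figure D2:**
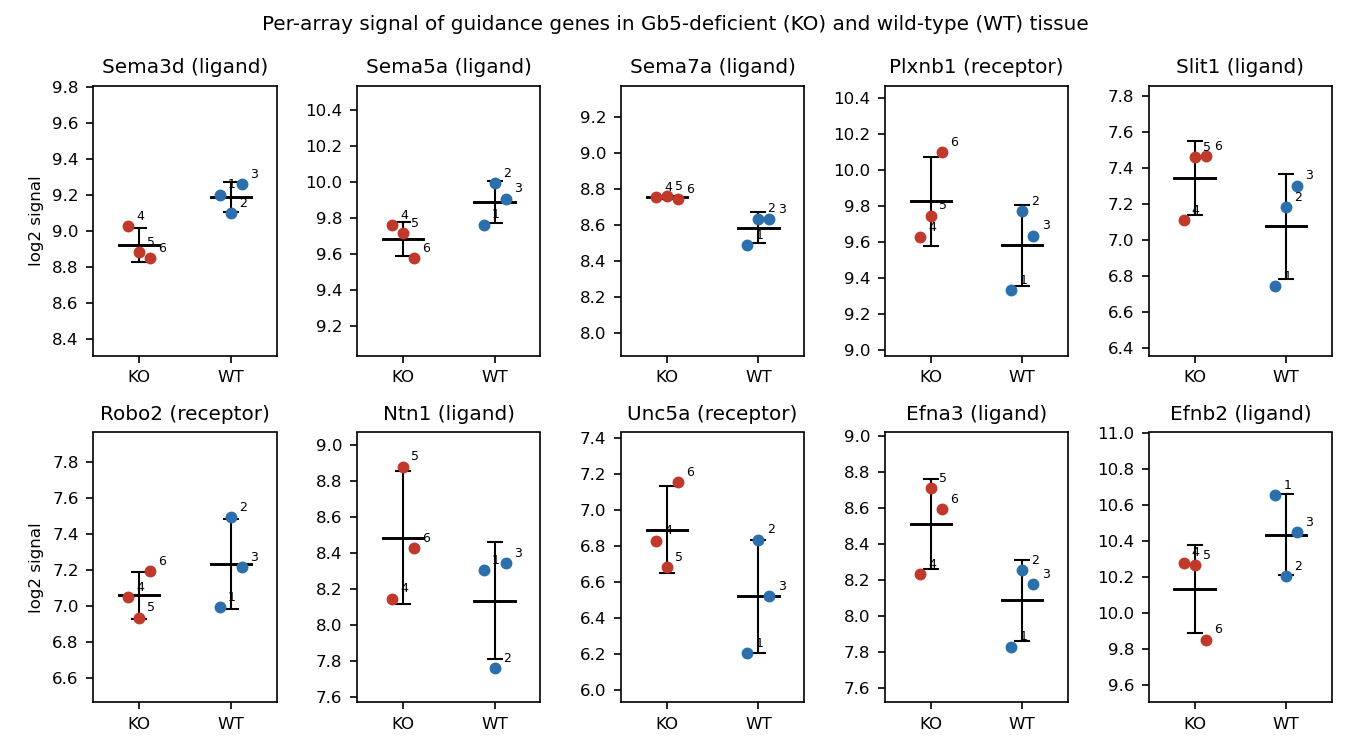
Log2 signal on each array (points, numbered by array) of the 10 guidance genes with separate groups or the largest differences in their family, KO left and WT right, with mean and SD (bars, n = 3). Every panel spans the same 1.5 log2 units. Groups are separate for Sema3d, Sema5a and Sema7a and overlap in the other 7.

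Plexins, the signalling receptors, lay above 0 in 5 of 7 genes, also without KO array 6, and none passed. Without WT array 1 or WT array 2 the count was 4 of 7, as with a second quantile normalization or array medians subtracted. It was 6 of 7 without KO array 4, and 7 of 7 with the mean of each gene's probe sets (median 0.07). Plxnb1, a receptor of Sema4d, had the largest value of the receptors in this family: 9.63, 9.74 and 10.10 in KO arrays 4, 5 and 6, against 9.33, 9.77 and 9.63 in WT arrays 1, 2 and 3. The groups overlapped, and the extremes were KO array 6 and WT array 1. The difference was 0.24 (SE 0.16, limma adjusted p = 0.627) and was 0.11 without KO array 6 and 0.12 without WT array 1. Plxna1 had a value of 0.23, but its other probe set lay at -0.14. Plxnb2, known for the proliferation and migration of granule cell precursors in mice, had a value of 0.21 on its only probe set, which was 0.10 without KO array 6 and 0.11 without WT array 1. Plxna2 gave 0.13, 0.14 and 0.11 on its 3 brighter probe sets and -0.24 on the remaining one, and the first was 0.032 without KO array 6. Plxna4 (-0.11), Plxnc1 (-0.09) and Plxnd1 (0.01) completed the plexins. The other Plxna4 probe set gave 0.25, and the other Plxnc1 probe sets above the filter gave 0.04, 0.17 and 0.42. The direction of both genes thus depended on the probe set.

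Both neuropilins lay below 0, and 1 of them did without KO array 6 or without KO array 4. Nrp1 averaged 9.63 ± 0.23 in KO and 9.68 ± 0.09 in WT (SD, n = 3 each), and Nrp2 8.93 ± 0.25 in KO and 9.09 ± 0.25 in WT (SD, n = 3 each). Their values of -0.05 and -0.16 on these brightest probe sets were smaller than the spread between KO arrays. Array 5 was the highest of the 3 KO arrays for both genes. The other Nrp1 probe sets gave -0.0016, -0.26 and -0.22, and the other Nrp2 probe sets above the filter 0.0004 and -0.23. The groups overlapped on all of them.

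All 3 Slits had values above 0, and none passed. Without KO array 6, as without KO array 5, WT array 1 or WT array 3, 2 of the 3 lay above 0. Their median was 0.16, and 0.050 without KO array 6. Slit1 had the largest difference of the slit-robo family, with signals of 7.11, 7.46 and 7.47 in KO arrays, against 6.75, 7.18 and 7.30 in WT arrays. KO array 4 lay below WT arrays 2 and 3, so the groups overlapped, and WT array 1 was the lowest. The log2 difference came to 0.27 (SE 0.17, limma adjusted p = 0.626), and the value was 0.10 without WT array 1. A second Slit1 probe set gave 0.27 as well, and there the groups were separate (5.74, 6.00 and 5.91 in KO, against 5.70, 5.54 and 5.60 in WT). Slit2 averaged 10.67 ± 0.19 in KO and 10.66 ± 0.09 in WT (SD, n = 3 each) on its brightest probe set. Its other probe set above the filter gave 0.33, with overlapping groups. Slit3 had a value of 0.16, which was 0.050 without KO array 6.

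Of the Robo receptors, Robo2 was the furthest from 0, at 7.05, 6.94 and 7.20 in KO, against 6.996, 7.49 and 7.22 in WT. Its value of -0.17 (SE 0.15, limma adjusted p = 0.695) rested largely on WT array 2 and was -0.05 without it. Robo1 gave -0.03 on its brightest probe set (10.35 ± 0.25 in KO and 10.38 ± 0.13 in WT, SD, n = 3 each) and 0.18 on another, where the KO arrays (8.88, 9.06 and 8.93) lay above the WT arrays (8.77, 8.81 and 8.76). Robo3, known for midline crossing of hindbrain axons, was dim, at 5.42 in KO and 5.35 in WT, with a value of 0.08.

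In the netrin family 6 of 7 genes lay above 0, also without KO array 6, and none passed. Without WT array 1 the count was 5 of 7. Unc5a, a repulsive netrin receptor, read 6.83, 6.68 and 7.16 in KO arrays 4, 5 and 6, against 6.21, 6.84 and 6.52 in WT arrays 1, 2 and 3. WT array 2 lay above KO arrays 4 and 5, so the groups overlapped. The log2 fold change was 0.37 (SE 0.18, 95% interval -0.05 to 0.79, limma adjusted p = 0.606), and was 0.21 without WT array 1 and 0.24 without KO array 6. No other Unc5a probe set was available to set beside it.

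Ntn1, the secreted netrin, read 8.14, 8.88 and 8.43 in KO arrays, against 8.30, 7.76 and 8.34 in WT arrays. KO array 5 was the highest and WT array 2 the lowest, and the remaining 4 arrays were mixed. The difference of 0.35 (SE 0.22, 95% interval -0.14 to 0.84, limma adjusted p = 0.621) had the widest interval of the 39 genes. Without KO array 5 it was 0.15 and without WT array 2 it was 0.16. Ntn4, a netrin of basement membranes, had a value of 0.07 on its brightest probe set and 0.34 on another, whose KO arrays (5.72, 5.63 and 5.62) lay above its WT arrays (5.47, 5.09 and 5.39). Without KO array 4 the brightest gave 0.0070. The other probe set did not pass when every probe set was tested on its own (limma adjusted p = 0.648).

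Unc5c and Dcc showed small differences. Unc5c, the gene lost in the rostral cerebellar malformation mouse, averaged 11.88 ± 0.13 in KO and 11.87 ± 0.01 in WT (SD, n = 3 each). Its log2 fold change of 0.01 (95% interval -0.16 to 0.18) was the most precisely measured of the 39, and its second probe set gave -0.04. Dcc, the attractive netrin receptor, averaged 10.75 ± 0.08 in KO and 10.68 ± 0.16 in WT (SD, n = 3 each), with values of 0.06, 0.10 and 0.22 on its 3 probe sets. Unc5d had a value of 0.18 and Unc5b, a receptor also known from blood vessels, one of -0.01.

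Ephrins, the ligands of the last family, held both ends of the whole list. Efna3, a lipid-anchored ephrin that binds EphA receptors, read 8.23, 8.71 and 8.59 in KO arrays, against 7.83, 8.25 and 8.18 in WT arrays. KO arrays 5 and 6 lay above every WT array, while KO array 4 lay just under WT array 2. The log2 fold change was 0.42, or 1.34-fold (SE 0.16, 95% interval 0.06 to 0.79), and the limma adjusted p was 0.573. A second Efna3 probe set gave 0.22, and leaving out single arrays moved the value between 0.30 and 0.56.

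Efnb2, a transmembrane ephrin of neurons and arteries, read 10.28, 10.26 and 9.85 in KO arrays, against 10.65, 10.20 and 10.45 in WT arrays. The groups overlapped through WT array 2, and KO array 6 was the lowest. Its difference was -0.30 (SE 0.15, limma adjusted p = 0.606) and was -0.16 without KO array 6 and -0.19 without WT array 1. Its second probe set above the filter gave -0.14, and the mean of its probe sets gave -0.03. Efnb3, the other transmembrane ephrin measured, had a value of -0.13, and Efna5 one of 0.10 (8.13 ± 0.30 in KO and 8.03 ± 0.10 in WT, SD, n = 3 each).

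Of the Eph receptors, Epha3, Epha4 and Epha5 lay below 0 and Epha7 and Ephb1 above, and none passed. The split was the same without KO array 6, and with the mean of probe sets 4 of the 5 lay above 0. Epha4, which binds both classes of ephrin, averaged 10.58 ± 0.10 in KO and 10.79 ± 0.16 in WT (SD, n = 3 each), a value of -0.21 (SE 0.10, limma adjusted p = 0.603). Its other 4 probe sets gave 0.10, 0.21, 0.17 and -0.05, so its direction depended on the probe set. Epha3 gave -0.17 on its brightest probe set (-0.048 without WT array 1) and -0.48 on the next, where the groups overlapped (8.99, 8.36 and 8.38 in KO, against 9.64, 8.75 and 8.76 in WT). A further Epha3 probe set, just above the filter, gave 0.08. Epha5 gave -0.17 on its brightest probe set, and 0.14, 0.25 and -0.11 on the others. Epha7 gave 0.06 on its brightest probe set, and 0.16, -0.35 and 0.20 on the others. Ephb1 averaged 11.65 ± 0.10 in KO and 11.56 ± 0.16 in WT (SD, n = 3 each).

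Probe sets of one gene often pointed in opposite directions. The 39 genes had 101 probe sets in all, 87 of them above the filter. Of the 27 genes with 2 or more above the filter, 11 had all of them on one side of 0 and 16 had them on both sides. When each of 34945 probe sets was tested on its own, 0 of the 101 passed in limma (9 of all did). The separate groups on other probe sets of Slit1, Robo1 and Ntn4 were picked out after their values were seen. Groups were separate for 14.9% of all genes, and the share over all probe sets is not given here.

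**Figure D3:**
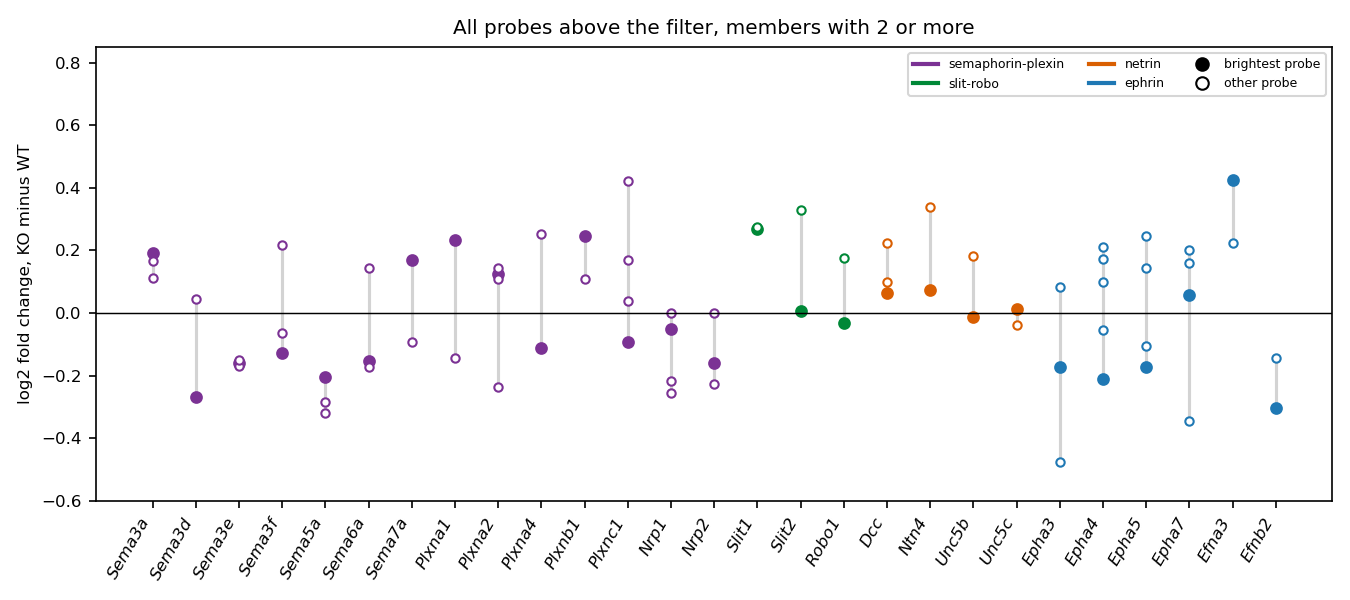
Log2 fold change, KO minus WT, of every probe set above the filter (y axis) for the 27 guidance genes with 2 or more, coloured by family, with the brightest probe set filled. For 16 genes the probe sets lie on both sides of 0, while those of Efna3, Slit1, Sema3a and Dcc all lie above it and those of Sema5a, Sema3e and Efnb2 below it.

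KO array 5 was the highest of the 6 arrays for 12 of the 39 genes (30.8%, against 27.7% of all genes) and KO array 6 for 10 (25.6%, against 23.4%), while KO array 6 and WT array 1 were each the lowest for 11. Over all genes, KO array 6 was the lowest for 17.9% and WT array 1 for 31.9%, against 28.2% of the guidance genes in each case. The spread within a genotype had a median SD of 0.19 in KO and 0.13 in WT over the 39 genes, and the SD was larger in KO for 23 of them. Over all genes the median SD was 0.14 in KO and 0.11 in WT.

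As mean deviations from each gene's own 6-array mean, the plexins stood at -0.10, 0.07 and 0.16 on KO arrays 4, 5 and 6, against -0.11, -0.08 and 0.05 on WT arrays 1, 2 and 3. For the semaphorins the deviations were 0.02, -0.03 and -0.10 in KO and 0.04, 0.06 and 0.01 in WT, with KO array 6 the lowest. The Slits stood at -0.10, 0.13 and 0.19 in KO, against -0.19, -0.01 and -0.02 in WT. In each of these 3 roles the genotypes overlapped. The 7 netrin family genes together stood at 0.01, 0.07 and 0.14 in KO, against -0.12, -0.05 and -0.06 in WT. There every KO array lay above every WT array, and the mean log2 fold change was 0.15. The netrin family median was lower, at 0.07 (0.05 without KO array 6). Unc5a (0.37) and Ntn1 (0.35), both moved by single arrays, had the largest values of the 7. Over all genes the deviations were -0.0006, 0.03 and 0.015 in KO and -0.04, -0.004 and -0.0002 in WT. The genotypes overlapped in netrins and netrin receptors taken apart and in the other families. The netrin family difference was not tested.

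**Figure D4:**
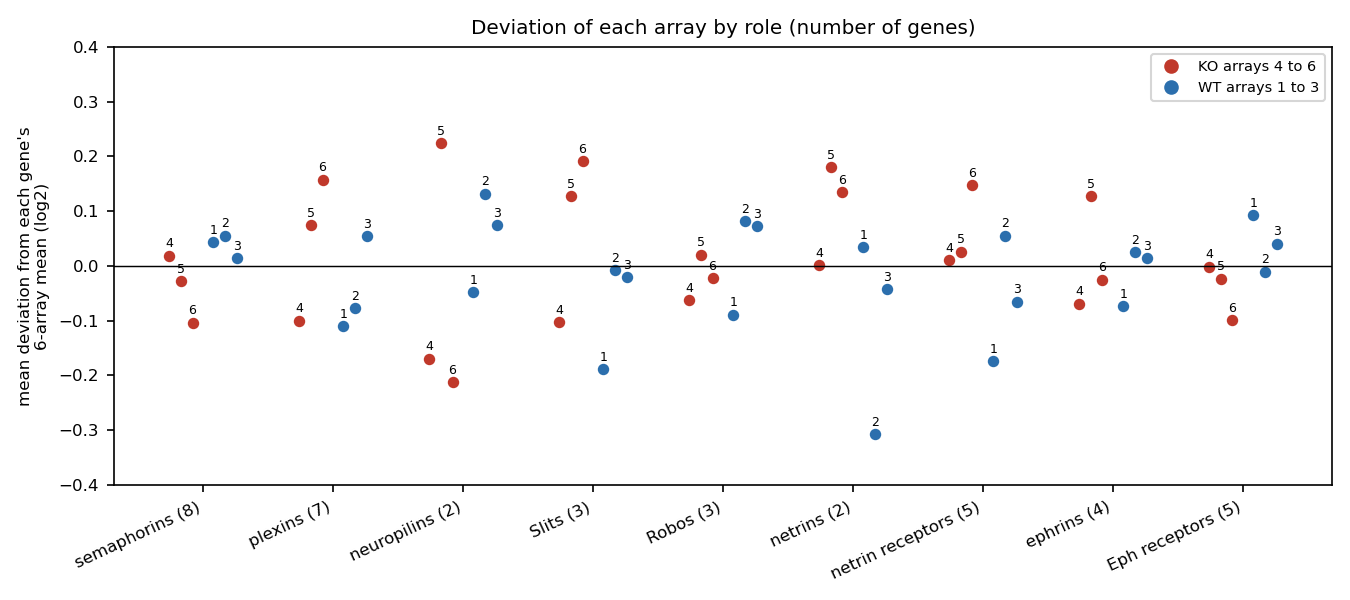
Mean deviation of each array from the genes' 6-array means (log2, y axis) for the 9 roles (x axis, number of genes in brackets), KO left and WT right, with points numbered by array. KO array 6 is the highest array for plexins, Slits and netrin receptors and the lowest for semaphorins, neuropilins and Eph receptors.

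Markers of other cell types were set beside these values. For 3 of 5 oligodendrocyte markers all KO arrays lay below all WT arrays (60%, against 4.82% of all genes). The other 2, Mag (0.18) and Mbp (0.02), lay above 0 with overlapping groups. The list's median was -0.07 (log2 fold change), with a mean level of 11.91 to 12.02 in KO and 11.97 to 12.04 in WT. Oligodendrocyte precursor markers lay above 0 in 4 of 4 (median 0.04), and granule progenitor and cell cycle markers in 4 of 6 (median 0.17). Meningeal and fibroblast markers lay below 0 in 4 of 6 (median -0.18, mean levels of 9.92 to 10.17 in KO and 10.12 to 10.32 in WT). Red cell markers did so in 3 of 4 (median -1.25, mean levels of 8.18 to 8.42 in KO and 8.90 to 9.65 in WT). In these 3 all KO arrays lay below all WT arrays (75%, against 4.82% of all genes), and Hba-a2 (0.08) overlapped. Choroid plexus markers varied within each genotype, from 6.83 to 8.48 in KO and from 7.41 to 9.11 in WT. Of 5 markers of midbrain and hindbrain outside the cerebellum with a probe set, 3 were tested. Slc6a3, the dopamine transporter, read 11.20, 10.19 and 10.66 in KO and 11.75, 12.14 and 12.15 in WT, the groups of Th (-0.37) and Hoxa5 (0.03) overlapped, and Hoxb5 and Chat were below the filter. The part of these levels in the guidance values was not tested.

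Other genes of the guidance pathway gave small values as well. Of 81 such genes, 75 were tested and 0 passed in limma, with 4 at an unadjusted p under 0.05 (5.33%, against 8.57% of all genes). The median of these was 0.00, with 39 above 0 and 36 below (41 and 34 without KO array 6), and the groups were separate for 6 (8%, against 14.9% of all genes).

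Sema5b, the close relative of Sema5a, had the largest value among them and went the other way. On the brighter of its 2 probe sets Sema5b read 8.88, 9.16 and 9.33 in KO arrays, against 8.42, 8.77 and 8.69 in WT arrays. Every KO array lay above every WT array there, and the other probe set is not given here. The log2 fold change was 0.50 (SE 0.15, 95% interval 0.17 to 0.83, limma adjusted p = 0.505), so it did not pass. Sema4a, the next of the other semaphorins and plexins (14 tested, median -0.01), had a value of 0.27.

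Among the other ephrins and Eph receptors (9 tested, median 0.12) the largest values were those of Ephb4 (-0.30) and Ephb6 (0.29). The other netrins, Slit receptors and repulsive guidance molecules (9 tested, median 0.06) were led by Rgma (0.22) and Rgmb (0.15), ligands of the netrin receptor relative neogenin. Signalling genes of the growth cone (30 tested, median -0.02) were led by Mical1 (0.49), an enzyme that oxidises actin downstream of plexins, and Ngef (0.39). Co-receptors and adhesion molecules (13 tested, median 0.04) stayed between -0.14 and 0.15, with Lrig1 (0.15) and Flrt1 (-0.14) at the ends.

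**Figure D5:**
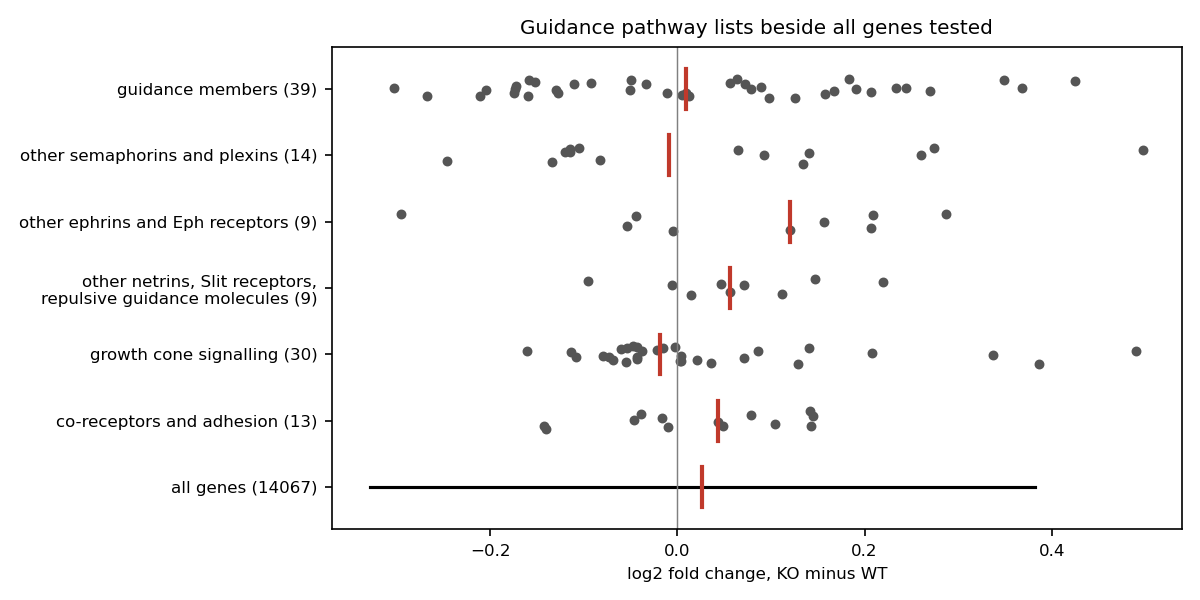
Log2 fold change, KO minus WT, of single genes (points, x axis) in the guidance list and 5 further lists of the pathway, with list medians (red bars) and the number of genes in brackets. The black line spans the central 95% of all 14067 genes (-0.33 to 0.38), and most points lie inside it.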

How the data were processed

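RNA of 3 KO and 3 WT mice was measured on 6 arrays. The deposited table holds log2 values, 1 per probe set and array. The tools named in the submitters' processing notes are RMA and Partek, with versions not given in the sources used here. Quantile normalization, a step of RMA, gives arrays a common distribution, which hides a shift of all genes together. No batch was examined, since scan dates were not used here.

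The table holds 45101 probe sets, 64 of them controls. The platform annotation pairs 34945 with 1 gene, 932 with several and 9160 with none. Symbols were updated through Entrez identifiers in RefSeq (GRCm38.p6), which held 34741. Genes whose brightest probe set averaged above the 30th percentile (4.70) were tested: 14067 of 18193.

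limma 3.58.1 in R 4.3.3 was fitted to all tested genes (KO minus WT, empirical Bayes with an intensity trend, two-sided, Benjamini-Hochberg adjustment over 14067 genes, threshold 0.05). It was tested on simulated data. Alternatives were other filters, normalizations, probe set rules and variance models, array weights, and each array left out. Signals were given per array for guidance genes with separate groups and for the 2 with the largest change in each family, and for Sema5b and some second probe sets chosen after their values were seen. Of other pathway genes, the 2 with the largest change per list were named. The guidance genes and lists were chosen with earlier results of these data known.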

Additional observations from a re-analysis of the deposited data

Results flagged for a closer look

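KO array 6 carried a Y-linked signal: Eif2s3y read 11.80 there (log2), above its level of 3.27 to 3.39 in WT arrays, while KO arrays 4 and 5 read 3.43 and 3.19. The labels describe cohorts matched by sex.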

How the results depend on the processing

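No guidance gene passed limma's adjusted 0.05 under any alternative, and the smallest adjusted p of any of them was 0.239. Over all genes, 8 passed with no filter, 3 above the 50th percentile, and 2 to 10 with single arrays left out. Family medians moved with the mean of a gene's probe sets (semaphorin-plexin 0.035, slit-robo 0.16, netrin 0.15, ephrin 0.028, ligands 0.045) and with array weights (netrin 0.15, ephrin -0.049). With single arrays left out they ran from -0.13 to 0.024 for semaphorin-plexin, -0.0019 to 0.11 for slit-robo, 0.050 to 0.14 for netrin, -0.14 to 0.0032 for ephrin, -0.061 to 0.052 for ligands, -0.0044 to 0.059 for receptors and -0.0064 to 0.032 for all 39 genes. Above the 50th percentile the slit-robo median was -0.014, and with array medians subtracted that of the 39 genes was -0.017. Of 39 genes, 17 changed sign under at least 1 alternative and 22 did not. With the mean of probe sets these were Sema3c (0.11), Sema3f (0.0082), Plxna4 (0.071), Plxnc1 (0.13), Robo1 (0.048), Unc5b (0.085), Unc5c (-0.013), Epha4 (0.043) and Epha5 (0.028). A second quantile normalization gave -0.014 for Plxnd1. Subtracting array medians gave -0.017 for Plxnd1, -0.021 for Slit2 and -0.013 for Unc5c. Array weights gave -0.0097 for Slit2 and 0.023 for Unc5b. Leaving out single arrays gave Sema3e -0.33 to 0.045, Sema3f -0.21 to 0.016, Plxna4 -0.23 to 0.031, Plxnc1 -0.30 to 0.10, Plxnd1 -0.094 to 0.090, Nrp1 -0.19 to 0.024 and Slit2 -0.087 to 0.11. It also gave Robo1 -0.16 to 0.081, Dcc -0.021 to 0.13, Unc5b -0.064 to 0.059, Unc5c -0.061 to 0.057, Ephb1 -0.0024 to 0.15, Efna5 -0.066 to 0.23 and Efnb3 -0.20 to 0.0032. The cause was not tested. No paired analysis was possible because the labels do not say which KO and WT mice were littermates.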
